A study of Chlorocebus aethiops with 12 samples.

Results

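Transcripts of the TSC22 domain family were measured with human one-colour microarrays in COS-1, an African green monkey kidney line of fibroblast-like shape. Its members were chosen by the accession printed for each probe: TSC22D3 (GILZ, accessions NM_198057 and NM_004089), TSC22D1 (NM_183422 and NM_006022), TSC22D2 (NM_014779) and TSC22D4 (NM_030935). The 4 genes were represented by 6 of the 41000 probes, all 6 among the 31230 probes that could be tested. NM_004089 and NM_183422 had 1 probe each, and NM_014779 and NM_030935 had 2 probes each. NM_198057 and NM_006022 matched no probe and are not analysed here, so that transcript variants of TSC22D3 and TSC22D1 could not be set against each other. Which variants the probes of these genes bind was not checked, since probe sequences were not used.

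Before treatment, the cells received by transfection S211A, which is a form of the glucocorticoid receptor (GR) altered at a phosphorylation site, with or without MDFIC. From 48 h after transfection they were treated for 6 h with 100 nM dexamethasone (Dex), a synthetic glucocorticoid, or with vehicle. The 4 groups were S211A+MDFIC Dex, S211A+MDFIC vehicle, S211A Dex and S211A vehicle, each with 3 arrays described in the labels as biological replicates. All 4 groups carried the mutant receptor, and all were kept in charcoal-stripped serum, so no comparison here shows what the normal receptor or the absence of a receptor would give. The cell type and the levels of the transfected genes were not checked here, since the files give no gene names.

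TSC22 proteins share a conserved TSC box followed by a leucine zipper, through which they form homodimers and heterodimers. TSC22D3, known as GILZ (glucocorticoid-induced leucine zipper), is a classical direct target of GR in many cell types and mediates part of the anti-inflammatory action of glucocorticoids, among other things by binding NF-kappaB and AP-1 proteins. TSC22D1 was first described as a transcript stimulated by TGF-beta. TSC22D2 and TSC22D4 are less studied relatives that have been found with the pseudokinase NRBP1 in human cells.

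All values are log2 signals relative to the 75th percentile of the same array unless an intensity is named, so that 0 stands for the level of that percentile. Every probe was well above background on all 12 arrays, and none of its spots was saturated or marked as an outlier. The error that the scanner software assigned to a spot was 10.0% to 10.3% of its intensity for 5 of the 6 probes. For the dim TSC22D2 probe A_24_P337062 it was 12.7% to 18.6%, and the background-subtracted signal was 0.598 to 1.23 times the local background. Signals of different probes are not set against each other, since each binds its target with its own strength. The human probes were hybridised with monkey RNA.

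Over the whole experiment, r between replicate arrays across the tested probes was 0.986 to 0.996. The 12 arrays lay on 3 slides, and 67.7% to 71.7% of probes were well above background on slide 1, against 76.2% to 79.8% on slide 2 and 76.5% to 80.6% on slide 3. Slide 1 held all S211A vehicle arrays with S211A Dex replicate 1, slide 2 the other S211A Dex arrays with S211A+MDFIC vehicle replicates 1 and 2, and slide 3 the rest. Both Dex comparisons could therefore be read within 1 slide, but no slide held both groups of either MDFIC comparison.

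The first question was whether Dex changed the family in cells that carried MDFIC. TSC22D3 rose 2.76-fold and 1 of the 2 TSC22D4 probes rose 1.21-fold, the latter a call that held in 8 of 24 alternative ways of processing. The probes of TSC22D1 and TSC22D2 did not pass the test. Thus 2 of the 6 probes were called at a limma adjusted p under 0.05, both higher under Dex. Of all 31230 probes, 9.41% were called in either direction and 5.5% were called higher. All 3 Dex arrays lay above all 3 vehicle arrays for 3 of the 6 family probes, beside 16.9% of all probes, and below them for 2, beside 13.8% of all probes. The median log2 change was 0.06 over the 6 probes and 0.03 over all tested probes.

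The TSC22D3 probe (A_23_P217688, NM_004089) read -0.44, -0.51 and -0.30 in S211A+MDFIC Dex cells, against -1.93, -1.74 and -1.97 in S211A+MDFIC vehicle cells. All 3 Dex arrays lay more than a log2 unit above every vehicle array. As intensities these were 705, 633 and 619.7 under Dex and 244.8, 244.9 and 235 under vehicle. The means were -0.41 ± 0.11 under Dex and -1.88 ± 0.13 under vehicle (SD, n = 3 each). The log2 change was 1.46 (SE 0.09, limma adjusted p = 7.80e-06), or 2.76-fold with a 95% interval of 2.42 to 3.15. Among the 31230 probes it ranked 99 from the highest log2 change. In bulk RNA a higher signal per cell and a larger share of responding cells cannot be told apart, and the share of transfected cells was not analysed here.

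**Figure D1:**
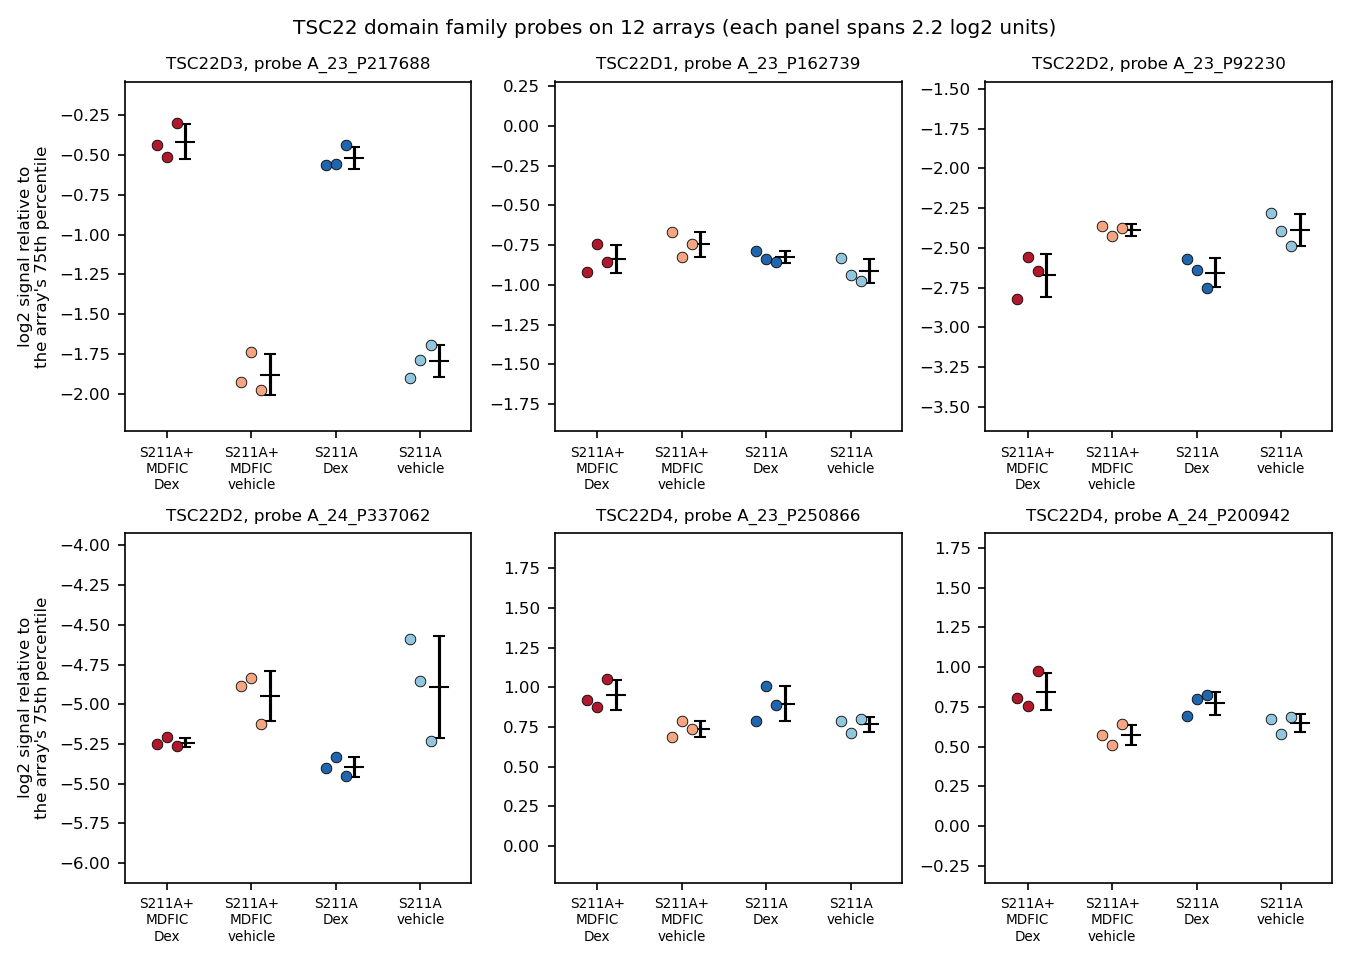
Log2 signal relative to the array's 75th percentile (vertical axis) for the 6 probes of the TSC22 family on all 12 arrays, by group (horizontal axis). Coloured points are arrays and black bars are the mean and SD of 3 arrays. The TSC22D3 points separate by more than a log2 unit between Dex and vehicle, whereas the other probes differ by 0.50 or less between group means.

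Cells with the S211A receptor alone were compared in the same way. TSC22D3 rose 2.42-fold under Dex, and none of the other 5 probes passed the test. The 1 call among 6 probes stands beside 6.14% of all tested probes called in either direction and 4.17% called higher. The Dex arrays lay wholly above the vehicle arrays for 2 of the 6 probes, beside 14.7% of all probes, and wholly below them for 2, beside 10.9%. The median log2 change was 0.11 over the 6 probes and 0.02 over all tested probes.

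TSC22D3 read -0.56, -0.56 and -0.44 in S211A Dex cells and -1.90, -1.79 and -1.70 in S211A vehicle cells, so that the groups again lay more than a log2 unit apart. The intensities were 529, 549.8 and 595 under Dex and 207, 254 and 244 under vehicle. The group means were -0.52 ± 0.07 under Dex and -1.79 ± 0.10 under vehicle (SD, n = 3 each). The log2 change was 1.28 (SE 0.09, limma adjusted p = 1.96e-05), or 2.42-fold with a 95% interval of 2.12 to 2.77, which ranked 257 of 31230 from the highest. Its percentage rank was 0.823% here and 0.317% in cells with MDFIC.

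The rise of TSC22D3 was present within single slides. Within slide 3, the 3 S211A+MDFIC Dex arrays lay 1.56 above the single vehicle array. Within slide 1, the single S211A Dex array lay 1.23 above the 3 vehicle arrays. Because of the layout, holding slide as a fixed block in the fit returned these same values, with limma adjusted p = 0.00100 in S211A+MDFIC cells and 0.00214 in S211A cells. These p-values assume that the single array varies like the other arrays, and are no separate support.

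**Figure D2:**
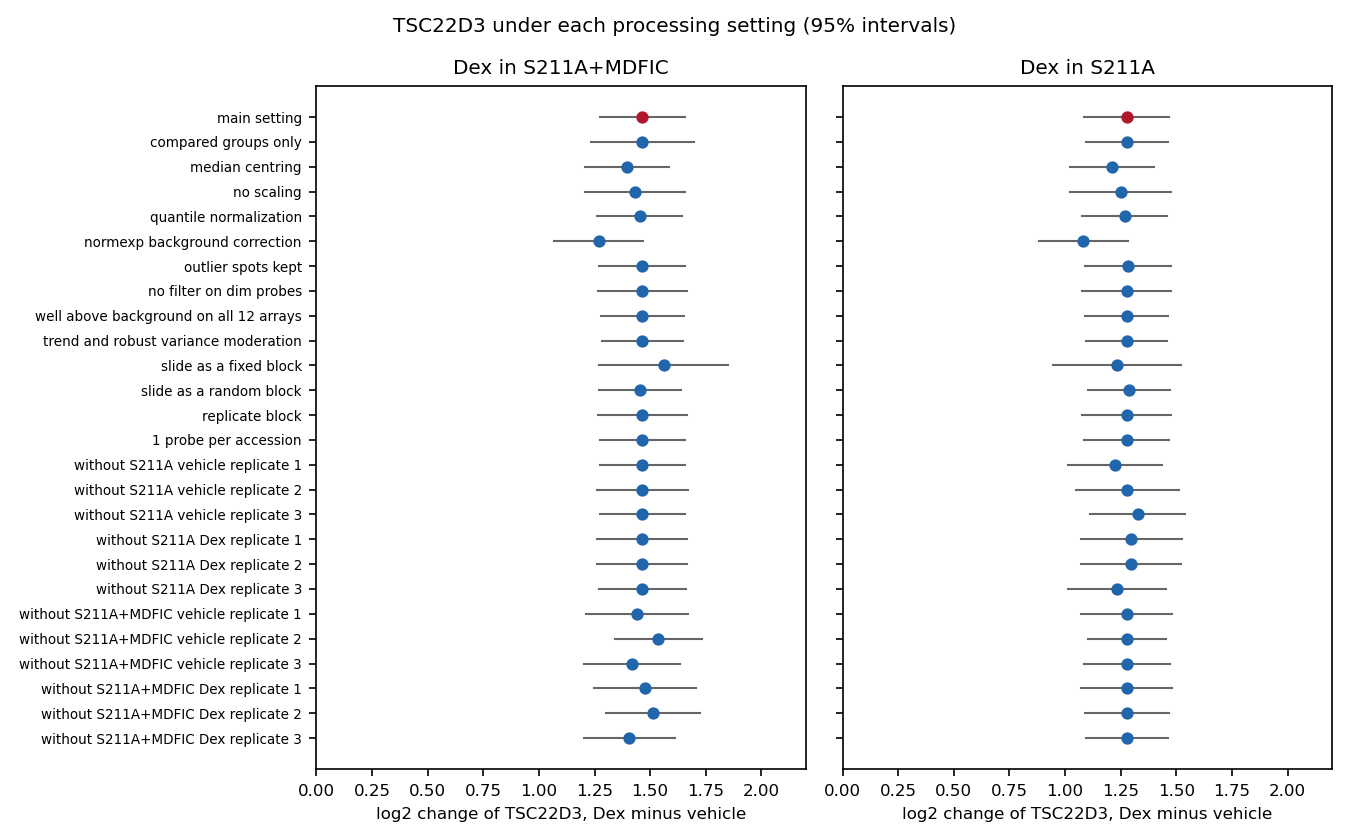
Log2 change of TSC22D3 under Dex (horizontal axis, Dex minus vehicle) with its 95% interval, in S211A+MDFIC cells (left) and S211A cells (right), for the main setting (red) and each alternative way of processing (blue, 1 row each). The alternatives run from 1.27 to 1.56 in S211A+MDFIC cells and from 1.08 to 1.33 in S211A cells, and every interval lies above 0.

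TSC22D4 was measured by 2 probes. Probe A_24_P200942 read 0.80, 0.76 and 0.98 in S211A+MDFIC Dex cells, against 0.57, 0.51 and 0.64 in S211A+MDFIC vehicle cells. The log2 change was 0.27 (SE 0.07, limma adjusted p = 0.0412), or 1.21-fold with a 95% interval of 1.08 to 1.35. The second probe, A_23_P250866, read 0.92, 0.88 and 1.05 under Dex and 0.69, 0.79 and 0.74 under vehicle. Its groups did not overlap either, but its log2 change of 0.21 (SE 0.07) did not pass (limma adjusted p = 0.0862). The call for A_24_P200942 held in 8 of 24 alternatives. It ended with slide as a fixed block (log2 0.21, limma adjusted p = 0.402), with median centring (0.20, limma adjusted p = 0.0752), without scaling, with normexp background correction, without the filter on dim probes, with the compared groups only, and when any 1 of 10 of the 12 arrays was left out, the exceptions being S211A Dex replicate 1 and S211A+MDFIC Dex replicate 2. Over all alternatives its adjusted p in limma ran from 0.0189 to 0.402.

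In S211A cells neither TSC22D4 probe passed. A_24_P200942 read 0.69, 0.80 and 0.83 under Dex and 0.67, 0.58 and 0.69 under vehicle, a log2 difference of 0.13 (SE 0.07, limma adjusted p = 0.377). A_23_P250866 read 0.79, 1.01 and 0.89 under Dex and 0.79, 0.71 and 0.80 under vehicle, also a log2 difference of 0.13 (SE 0.07, limma adjusted p = 0.356). Both were nearer to 0 within slide 1, at 0.04 and 0.02. A difference between the 2 probes in their Dex change was not detected. Averaged over both transfections, the change of A_23_P250866 minus that of A_24_P200942 was -0.03 (exact permutation test, two-sided p = 0.53, adjusted over 2 probe pairs p = 0.53). Over the 4 groups, the SD among replicate arrays of the log2 difference between the 2 probes was 0.01 to 0.10.

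TSC22D2 gave lower means under Dex at both probes and in both transfections, without passing the test in any of the 4 instances. A_23_P92230 read -2.82, -2.55 and -2.64 in S211A+MDFIC Dex cells, against -2.36, -2.43 and -2.38 in S211A+MDFIC vehicle cells (log2 difference -0.29, SE 0.08, limma adjusted p = 0.0580). In S211A cells it read -2.57, -2.64 and -2.75 under Dex and -2.28, -2.39 and -2.49 under vehicle (log2 difference -0.27, SE 0.08, limma adjusted p = 0.0999). In both transfections every Dex array lay below every vehicle array at this probe. It passed in S211A+MDFIC cells under 3 of 25 alternatives. These were slide as a random block (limma adjusted p = 0.0483), only probes well above background on all 12 arrays (limma adjusted p = 0.0439) and omission of S211A+MDFIC Dex replicate 2 (limma adjusted p = 0.0263). Over all alternatives its adjusted p in limma reached 0.328 there. In S211A cells it passed in 0 of 25, with an adjusted p in limma of up to 0.613. Within single slides its log2 change was -0.30 on slide 3 (S211A+MDFIC cells) and -0.18 on slide 1 (S211A cells).

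The dim TSC22D2 probe A_24_P337062 read -5.25, -5.21 and -5.27 in S211A+MDFIC Dex cells and -4.88, -4.84 and -5.13 in S211A+MDFIC vehicle cells (log2 difference -0.29, SE 0.14, limma adjusted p = 0.218). In S211A cells it read -5.40, -5.33 and -5.45 under Dex and -4.59, -4.85 and -5.23 under vehicle (log2 difference -0.50, SE 0.14, limma adjusted p = 0.0677). The Dex arrays were again the lower ones in both, but vehicle replicate 3 of each transfection stood near them. Within single slides the log2 change of this probe was -0.12 on slide 3 (S211A+MDFIC cells) and -0.51 on slide 1 (S211A cells). Without S211A vehicle replicate 3 the difference in S211A cells was -0.67 and passed (limma adjusted p = 0.00803). The probe passed in S211A cells in 2 of 24 alternatives, this one included, and its adjusted p in limma reached 0.399. The change of A_23_P92230 minus that of A_24_P337062, averaged over both transfections, was 0.12 (exact permutation test, two-sided p = 0.23, adjusted over 2 probe pairs p = 0.46). The smallest p that this test can give is 0.005. The average joins 0.01 in S211A+MDFIC cells and 0.24 in S211A cells, and within slides the value was -0.18 on slide 3 and 0.32 on slide 1. With quantile normalization it was 0.26 (exact permutation test, two-sided p = 0.025, adjusted p = 0.05).

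TSC22D1 did not separate under Dex. Its probe A_23_P162739 read -0.92, -0.74 and -0.85 in S211A+MDFIC Dex cells and -0.67, -0.82 and -0.74 in S211A+MDFIC vehicle cells, with overlapping groups (log2 difference -0.09, SE 0.07, limma adjusted p = 0.40). In S211A cells it read -0.78, -0.84 and -0.85 under Dex and -0.83, -0.94 and -0.98 under vehicle, where the groups also overlapped (log2 difference 0.09, SE 0.07, limma adjusted p = 0.516). The 95% intervals were -0.24 to 0.05 and -0.06 to 0.24 on the log2 scale.

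**Figure D3:**
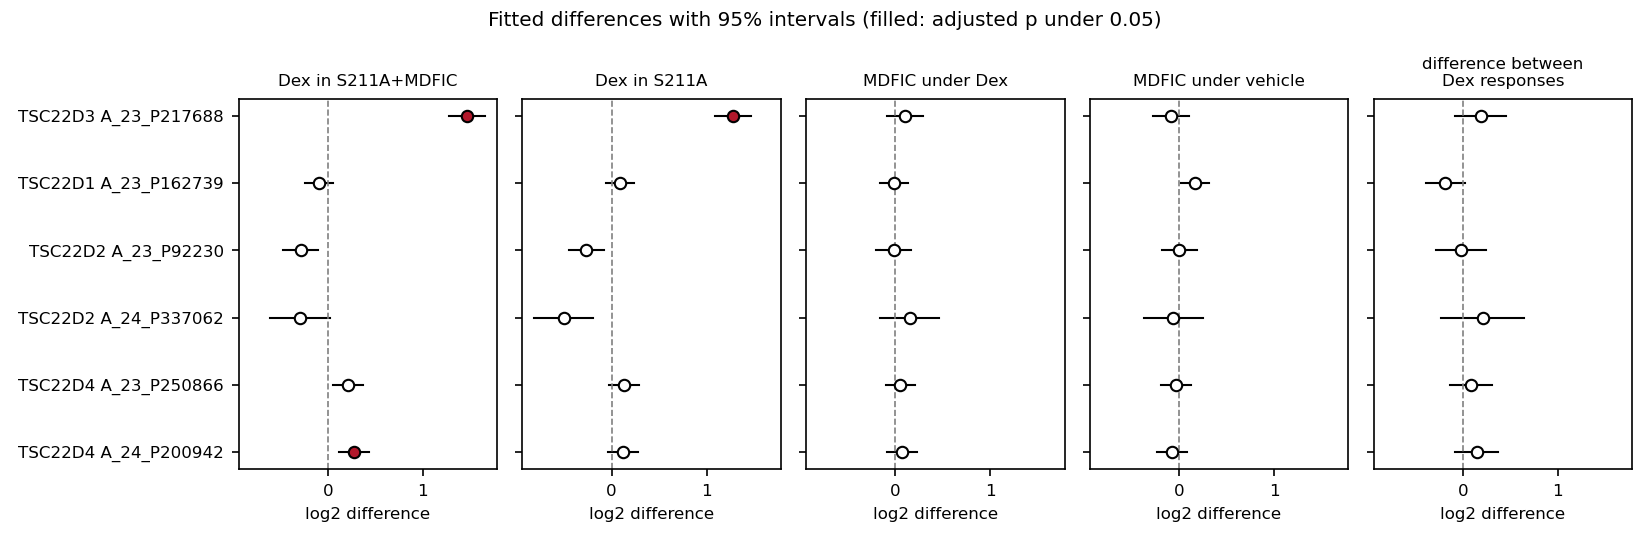
Fitted log2 differences (horizontal axes) with 95% intervals for the 6 probes (rows) in the 5 comparisons (panels, the first group minus the second). Filled points have an adjusted p under 0.05. TSC22D3 is filled in both Dex panels at 1.46 and 1.28, TSC22D4 A_24_P200942 is filled in S211A+MDFIC cells at 0.27, and no point is filled in the MDFIC panels or for the difference.

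The next question was whether MDFIC altered the level of these genes. Under Dex none of the 6 probes passed, beside 0.311% of all tested probes. In limma, 0 of the 6 had an unadjusted p under 0.05, beside 13% of all tested probes. Under vehicle none passed either, beside 0.736% of all tested probes. There 1 of the 6 had an unadjusted p under 0.05 in limma, a share near the 15.9% of all tested probes. TSC22D3 averaged -0.41 ± 0.11 in S211A+MDFIC Dex cells and -0.52 ± 0.07 in S211A Dex cells (log2 difference 0.10, 95% interval -0.09 to 0.29, limma adjusted p = 0.609). Under vehicle it averaged -1.88 ± 0.13 in S211A+MDFIC cells and -1.79 ± 0.10 in S211A cells (log2 difference -0.08, 95% interval -0.28 to 0.11, limma adjusted p = 0.684). The order of its group means was thus S211A+MDFIC Dex, S211A Dex, S211A vehicle and S211A+MDFIC vehicle from high to low, and neither the upper nor the lower pair differed beyond the spread between arrays.

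The probe with the unadjusted p under 0.05 was that of TSC22D1, at -0.74 ± 0.08 in S211A+MDFIC vehicle cells and -0.91 ± 0.08 in S211A vehicle cells (log2 difference 0.17, SE 0.07, limma adjusted p = 0.245). All its S211A+MDFIC vehicle arrays lay above all S211A vehicle arrays, as for 13% of all probes. Under Dex it averaged -0.84 ± 0.09 in S211A+MDFIC cells and -0.83 ± 0.04 in S211A cells. The only non-overlapping probe under Dex was A_24_P337062 of TSC22D2, with means of -5.24 ± 0.03 in S211A+MDFIC cells and -5.39 ± 0.06 in S211A cells (limma adjusted p = 0.644). A wholly higher S211A+MDFIC Dex group was found for 6.17% of all probes. At the other TSC22D2 probe and both TSC22D4 probes the log2 differences between transfections lay between -0.07 and 0.07. None of the 6 probes passed in either MDFIC comparison with slide as a fixed or a random block. With the fixed block, 0.298% of all tested probes passed under vehicle and 0.0448% under Dex. With the random block these shares were 1.99% and 0.682%. No slide held both groups of either comparison, so the fixed block linked them only through arrays of other groups.

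The study's main question was whether the action of MDFIC on GR-regulated transcripts needs the phosphorylation site that S211A lacks. In these groups it bears on the difference between the Dex responses with and without MDFIC. None of the 6 probes passed this test, beside 0.195% of all tested probes. In limma, 0 of the 6 had an unadjusted p under 0.05, beside 9.31% of all tested probes. For TSC22D3 the Dex change was 1.46 in S211A+MDFIC cells and 1.28 in S211A cells, a difference of 0.19 (SE 0.12, limma adjusted p = 0.636). Its 95% interval of -0.08 to 0.46 corresponds to a response 0.944 to 1.37 times as large with MDFIC. With slide as a fixed block the difference was 0.33 with an interval of -0.08 to 0.74 (limma adjusted p = 0.767).

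For the other probes the Dex change in S211A+MDFIC cells differed from that in S211A cells by -0.18 for TSC22D1 (95% interval -0.39 to 0.02). The values were -0.02 and 0.21 for the TSC22D2 probes A_23_P92230 and A_24_P337062 (intervals -0.28 to 0.24 and -0.23 to 0.65). For the TSC22D4 probes A_23_P250866 and A_24_P200942 they were 0.08 and 0.15 (intervals -0.14 to 0.31 and -0.08 to 0.37). All 6 intervals include 0, and the widest belongs to the dimmest probe relative to its background.

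**Figure D4:**
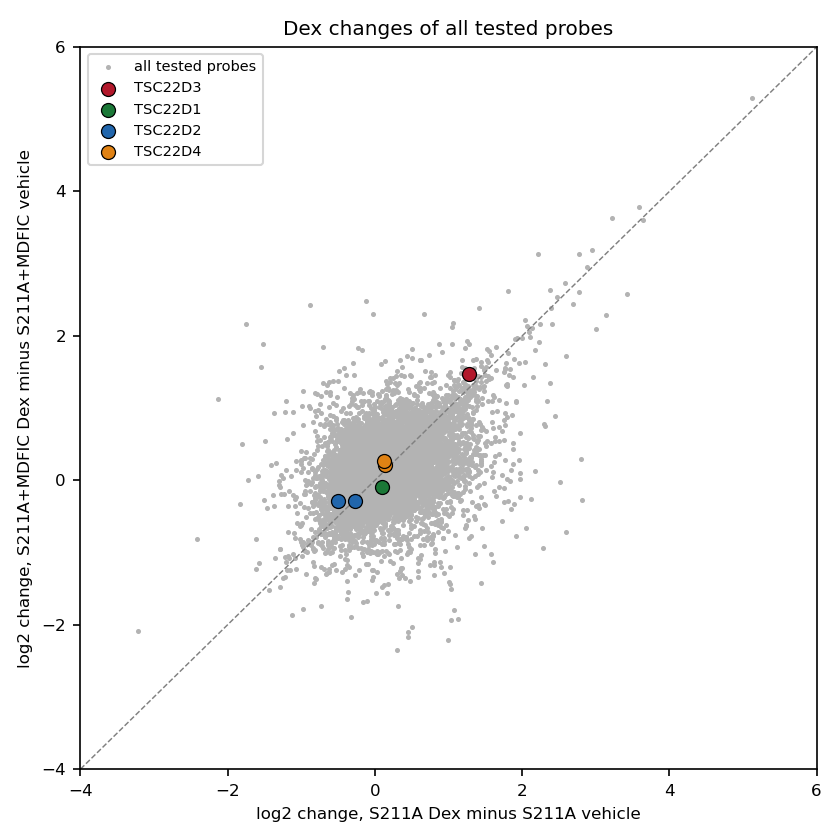
Log2 change under Dex in S211A cells (horizontal axis) and in S211A+MDFIC cells (vertical axis) for all 31230 tested probes (grey) and the 6 TSC22 family probes (coloured). The dashed line marks equal changes. TSC22D3 lies at 1.28 and 1.46 toward the upper right of the cloud, and the other family members lie between -0.50 and 0.27 on both axes.

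Lastly, other transcripts were ranked by how closely their probe followed TSC22D3 over the 12 arrays. The measure was the root mean square difference in log2 signal after each probe was centred on its own mean, over the 26704 other probes well above background on every array. The nearest probe, of accession XM_005255956, differed by 0.10, and changed under Dex by 1.44 in S211A+MDFIC cells (SE 0.12, limma adjusted p = 5.62e-05) and by 1.40 in S211A cells (SE 0.12, limma adjusted p = 7.20e-05). The next, of NM_005952, also differed by 0.10 and changed by 1.41 in S211A+MDFIC cells (SE 0.06, limma adjusted p = 7.41e-07) and by 1.24 in S211A cells (SE 0.06, limma adjusted p = 1.90e-06). The files do not pair these accessions with gene names. Since probes were selected for likeness to a Dex-responsive profile, their Dex changes are a description.

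Of the relatives of TSC22D3, the nearest by this measure was TSC22D4 probe A_24_P200942 with a difference of 0.59, which ranked 2382 of 26704. TSC22D1 stood at 0.71 (rank 14409) and the TSC22D2 probes at 0.84 and 0.91 (ranks 24954 and 25938). The means of TSC22D2 were lower under Dex and those of TSC22D3 higher.

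**Figure D5:**
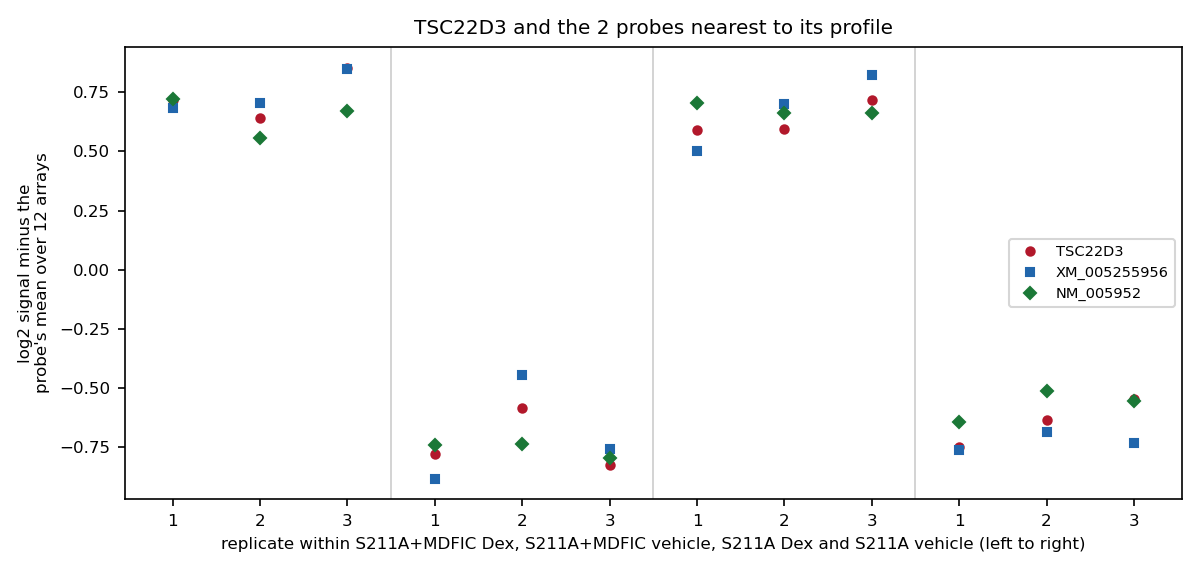
Log2 signal minus the probe's own mean over 12 arrays (vertical axis) for TSC22D3 and the 2 probes nearest to its profile, by group and replicate (horizontal axis). All 3 probes lie above 0 on the 6 Dex arrays and below 0 on the 6 vehicle arrays.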

How the data were processed

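Each of 12 Cy3-labelled RNA samples (per the labels) was hybridised to its own Agilent array. Per the file headers, the deposited values are linear intensity readings of 45015 spots per array with local background subtracted, made with Agilent Feature Extraction (version 12 per the submitters' processing notes). The deposited flags, which are other columns per the file headers, mark spots well above background, saturated or outlying. The authors' series-wide table held the same intensity in all 540180 values.

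Intensities were taken to log2, 945 outlier spots over the 12 arrays and 1639 control spots per array were left out, spots of a probe were averaged and the array's 75th percentile was subtracted. Probes well above background on all 3 arrays of a group, with at least 2 values per group, entered a limma fit (version 3.58.1, R 4.3.3) of 4 group means over 12 arrays (two-sided, Benjamini-Hochberg over 31230 probes). With 3 arrays per group, their number limits the precision. The SD describes the spread between the arrays of a group. The 95% intervals give the uncertainty of a fitted difference, from its limma SE. Probe pairs of 1 gene were compared by exact permutation over 400 arrangements. The script was tested on simulated data. Figures used matplotlib 3.10.9.

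The members and lists were chosen with earlier results of these data known. Of the 5 probes nearest to TSC22D3, 2 are printed. The lists of TSC22 partners, GILZ partners, factors driving GILZ, TGF-beta genes, glucocorticoid-induced genes and cell markers, and the transfected genes, are given by symbol. The files used here give accessions only, so these were not analysed here. Sequences are likewise not used here.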

Additional observations from a re-analysis of the deposited data

How the results depend on the processing

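TSC22D3 passed in both Dex comparisons under all 25 alternatives, with log2 changes of 1.27 to 1.56 in S211A+MDFIC cells and 1.08 to 1.33 in S211A cells, the lowest in both with normexp background correction. The number of family probes called for Dex in S211A+MDFIC cells was 2 in the main setting. It was 1 with median centring, no scaling, normexp, no filter on dim probes, slide as a fixed block, 1 probe per accession (which leaves out A_24_P200942) and the compared groups only, 3 with slide as a random block and with probes well above background on all 12 arrays (both adding A_23_P92230), and 1 to 3 when single arrays were left out. TSC22D3 was called each time. For Dex in S211A the number was 1, and it was 2 with the replicate block, which added A_24_P337062 (limma adjusted p = 0.0476), and 1 to 2 when single arrays were left out. The cause of these changes was not tested. Deviations of same-numbered arrays from their group means correlated with r of -0.25 to 0.24, above 0.1 in 4 of 18 pairs. Arrays of different numbers were not compared in this way, so these values cannot decide whether replicate numbers pair the arrays.

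No called value changed sign. Among values that did not pass, the sign turned in 14 of 148 instances under vehicle and 12 of 148 under Dex when MDFIC was compared, in 4 of 142 for the change in Dex response, and in 0 for either Dex comparison. Without scaling, the median of all probes was 0.12 higher on the log2 scale with MDFIC, and TSC22D3 under vehicle stood at 0.05 in place of -0.08. For the TSC22D2 probe pair, the difference in Dex change was -0.04 with normexp and 0.26 with quantile normalization.

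Over all probes, 2938 were called for Dex in S211A+MDFIC (1719 higher), 651 without scaling (523 higher), 2048 with median centring (1084 higher) and 5629 without S211A+MDFIC Dex replicate 2. For Dex in S211A these were 1919 (1303 higher), 619 (521 higher) and 1634 (800 higher), and the highest was 2252. The effect of MDFIC gave 230 calls under vehicle (66 to 1796 over the alternatives) and 97 under Dex (8 to 650). The change in Dex response gave 61 calls (0 to 181).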
